A study of Mus musculus with 8 samples.

Results

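The perilipins and their partners on the lipid droplet were followed in the epididymal white adipose tissue of mice, the visceral fat pad of the male. They were 10 genes picked by symbol from the 16505 rows of the deposited table, namely Plin1, Plin2, Plin3, Plin4, Plin5, Cidec, G0s2, Fitm2, Bscl2 and Lgals12, and all 10 were present and passed the filter on low values. Messenger RNA came from C57BL/6 mice fed a high fat diet for 12 weeks, 4 wild-type (WT) animals and 4 animals labelled as a double knockout of Mir181 (the knockout below, and DKO on plot axes). Strain and diet were common to both groups, and no group on another diet was analysed here. The labels do not name the deleted loci, the cells that lost them, or the age of the animals. Nor do they say whether animals shared a litter or a cage, so a p-value here reflects only how these 8 animals varied. Values are log2 CPM, the log2 of reads scaled to the total of their library as the authors deposited it. Each group is summarised by its mean ± SD over 4 libraries (n = 4). A change is knockout minus WT on the log2 scale ± SE from limma, and it passed where the p adjusted by Benjamini-Hochberg over 13797 tested genes was under 0.05.

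A lipid droplet is a core of triglyceride inside a single layer of phospholipid, and the perilipins coat that surface and control which lipases reach the fat. Plin1 and Plin4 are the forms typical of fat cells, while Plin2 and Plin3 are found in most cell types, Plin2 also being the main droplet coat of lipid-laden macrophages. Plin5 belongs to oxidative tissues such as heart and brown fat. The other members work beside them: Cidec joins small droplets into a large one, G0s2 inhibits the triglyceride lipase Pnpla2, Fitm2 and Bscl2 (seipin) act in the endoplasmic reticulum where droplets form, and Lgals12 is a galectin of the fat cell droplet.

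The droplet genes did not all move in one direction in the knockout. Of the 10 members 8 rose and 2 fell, against 22.7% of all tested genes higher and 16.1% lower (38.8% in either direction). The members were chosen with earlier results of these data known, so their counts and medians are a description and not a test. The fat cell forms Plin1 and Plin4 rose 3.46-fold and 3.66-fold, while the widely expressed Plin2 fell by 2.23 on the log2 scale, to 0.214 of the WT level. Plin3 moved least (−0.29), and its call was lost in 13 of 23 alternative settings. The knockout and WT values did not overlap for any of the 10, as for 37.4% of all tested genes. The median change of the members was 1.28, and that of all tested genes was 0.18. Relative to that shift the members had a median of 1.10. With each library centred on its median gene the split of all tested genes turned from 3137 higher and 2216 lower to 2444 higher and 2825 lower, and every member kept its direction.

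**Figure D1:**
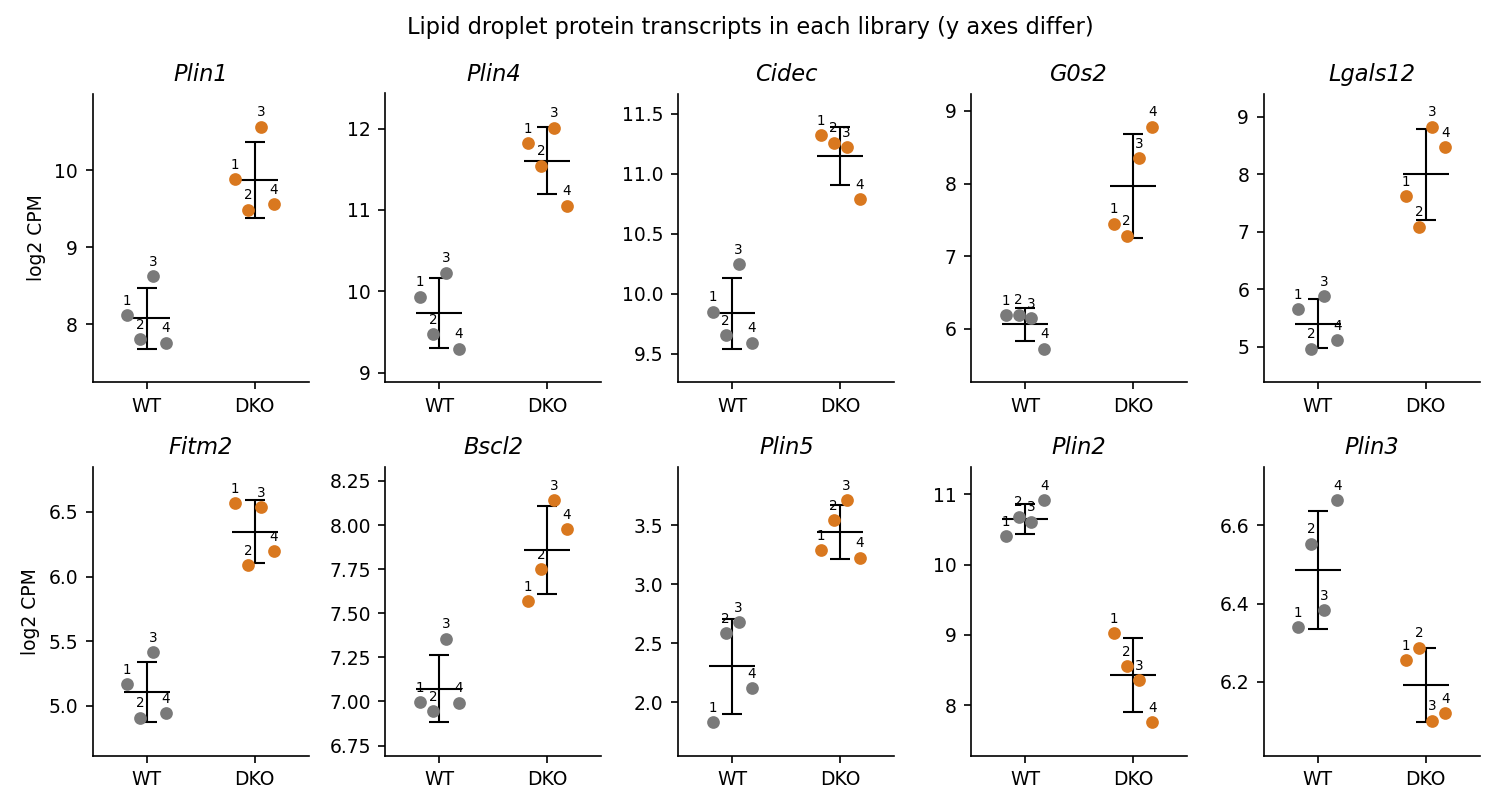
Log2 CPM of each of the 10 members (one panel each, with its own y axis) in 4 WT (grey) and 4 knockout (DKO, orange) libraries, numbered by replicate, with the mean and SD in black. In 8 panels every knockout point lies above every WT point, and in the panels of Plin2 and Plin3 every knockout point lies below, for Plin3 by only 0.05 between the nearest points.

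The libraries differed in more than genotype. Totals ran from 3736881 to 76838584 reads, and the member with the fewest reads, Plin5, still had 14 in its shallowest library. Ribosomal RNA took over 1% of reads in WT replicates 1, 3 and 4 and knockout replicate 1 (3.07% to 11.5%) and at most 0.334% in the other 4. The libraries over 1% were also the shallowest, with 3736881 to 6790005 reads. Knockout replicates 2, 3 and 4 were the deepest, with 20336161 to 76838584 reads. Depth, ribosomal RNA and genotype were thus partly confounded. Epididymis markers took 1.55%, 2.68% and 1.19% of reads in WT replicate 2 and knockout replicates 2 and 4, while the other 5 libraries had no more than 0.00510%. The widest Wilson 95% interval of these shares and of the marker shares given later extended 0.0310 percentage points to a side, for counting error only. Within the 4 libraries over 1% ribosomal RNA (3 WT, 1 knockout; the class with more) and the 4 under it (1 WT, 3 knockout; the class with less) each member changed in the same direction as over all libraries, with 1 library on 1 side of each and no error given. With that class as a covariate over all 8 libraries 9 of 10 members kept their call in limma, and Plin3 did not (−0.30 ± 0.12, adjusted p = 0.101).

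MicroRNAs of the miR-181 family repress messenger RNAs by pairing their seed, bases 2 to 8, with a site usually in the 3′ UTR. Which of them the knockout lacks is not named in the labels. The mature forms of the family are printed to show the seed they share (in capitals), with RefSeq sequence on GRCm38.p6, 5′ to 3′.
miR-181a-5p: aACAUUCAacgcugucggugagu
miR-181b-5p: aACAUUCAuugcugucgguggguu
miR-181c-5p: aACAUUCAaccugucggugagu
miR-181d-5p: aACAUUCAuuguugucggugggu
All 4 carry the seed ACAUUCA, whose match in a messenger RNA reads TGAATGT in DNA letters. In the longest annotated 3′ UTR of each member (GENCODE, build GRCm38, not the mm9 build named in the submitters' processing notes) this match occurred once in Plin3 and once in Fitm2 and in no other member. That was 2 of 10 members (20%), against 18.4% of 12843 tested genes with an annotated 3′ UTR. The 2 places are printed with the match in capitals.
Plin3, base 883 of a 3′ UTR of 2256, minus strand of chr17:56278833-56278860: tcttcccacttTGAATGTtggacgtgat
Fitm2, base 1200 of a 3′ UTR of 3124, minus strand of chr2:163468287-163468314: gtattagttgaTGAATGTtaagctgaga
Plin3 fell and Fitm2 rose, so the 2 genes with the match moved in opposite directions. Among all genes, 17.5% of the higher ones and 19.9% of the lower ones held it. A match is a string of letters here and no binding was measured.

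Plin1 guards the droplet of the fat cell, holding the lipase activator Abhd5 until protein kinase A phosphorylates it. Its log2 CPM was 8.12, 7.81, 8.63 and 7.76 in WT replicates 1 to 4 and 9.88, 9.49, 10.56 and 9.56 in knockout replicates 1 to 4. Replicate 3 was the highest of each group, and the lowest knockout library stood 0.86 above the highest WT library. The change was 1.79 ± 0.27 (limma adjusted p = 0.00107), with a 95% interval of 2.26-fold to 5.30-fold. Within the classes with more and with less ribosomal RNA the Plin1 difference was 1.71 and 2.06.

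Plin4, which coats small droplets newly formed in fat cells, followed Plin1 closely. Log2 CPM was 9.94, 9.47, 10.23 and 9.29 in WT and 11.82, 11.55, 12.01 and 11.05 in knockout libraries. Replicate 3 was again the highest and replicate 4 the lowest of each group, with no overlap. Plin4 changed by 1.87 ± 0.28 (limma adjusted p = 0.000962). The difference between Plin4 and Plin1 within a library was 1.65 ± 0.12 in WT and 1.74 ± 0.31 in knockout, a shift of 0.08 that is smaller than the SD of either group. In the annotation the Plin4 and Hdgfrp2 (Hdgfl2) genes overlap by 17 bases on opposite strands, and the sources used here do not say whether counting used the strand. Hdgfrp2 changed by 0.14 ± 0.24 (limma adjusted p = 0.661).

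Plin2, the droplet coat of most cells and of foam cells, went the other way. Its log2 CPM was 10.40, 10.68, 10.61 and 10.91 in WT libraries and 9.03, 8.56, 8.36 and 7.76 in knockout libraries. Every knockout library lay at least 1.38 below the lowest WT library, and knockout replicate 4 was the lowest of all 8. The change was −2.23 ± 0.25 (limma adjusted p = 0.000245), a ratio of 0.214 with a 95% interval of 0.144 to 0.317. Within the classes with more and with less ribosomal RNA the Plin2 difference was −1.62 and −2.46.

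Plin3, a coat protein that also moves freely in the cytosol, gave a small difference close to the threshold. Its log2 CPM was 6.34, 6.55, 6.38 and 6.66 in WT and 6.26, 6.29, 6.10 and 6.12 in knockout libraries. The groups did not overlap, but WT replicate 1 and knockout replicate 2 were only 0.05 apart. The Plin3 change was −0.29 ± 0.10 (limma adjusted p = 0.0491), a ratio of 0.815. The call was lost in 13 of 23 alternative settings. It was lost without WT replicate 2 (−0.27, adjusted p = 0.113), WT replicate 3 (−0.33, adjusted p = 0.0579) or WT replicate 4 (−0.23, adjusted p = 0.136). It was also lost without knockout replicate 2 (−0.33, adjusted p = 0.0563), knockout replicate 3 (−0.26, adjusted p = 0.119) or knockout replicate 4 (−0.27, adjusted p = 0.106), all in limma.

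The contrast between the fat cell pair and the widely expressed pair was taken within each library as the mean log2 CPM of Plin1 and Plin4 minus that of Plin2 and Plin3. It was 0.66, 0.02, 0.93 and −0.26 in WT and 3.21, 3.09, 4.05 and 3.37 in knockout libraries. The groups did not overlap, with means of 0.34 ± 0.55 in WT and 3.43 ± 0.43 in knockout. Only the shift between groups can be read, since the lengths of the genes set the zero of the score. It was 3.09 over all libraries, 2.77 in the class with more ribosomal RNA and 3.48 in the class with less. No test was made of this score, since its genes were chosen together with results of these data in view.

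The ratios to Plin2 shifted more than those to Plin3, and each ratio also carries the rise of Plin1 (1.79) or Plin4 (1.87). The log2 ratio of Plin1 to Plin2 went from −2.57 ± 0.53 in WT to 1.45 ± 0.66 in knockout, and that of Plin4 to Plin2 from −0.92 ± 0.60 to 3.18 ± 0.37. For both ratios every knockout library lay above every WT library, and their zero has no meaning since CPM is not divided by length. The ratios to Plin3 shifted by 2.09 for Plin1 and 2.17 for Plin4, against 4.02 and 4.10 for the ratios to Plin2. The widely expressed pair did not move as one, for the log2 ratio of Plin2 to Plin3 was 4.17 ± 0.09 in WT and 2.23 ± 0.46 in knockout.

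**Figure D2:**
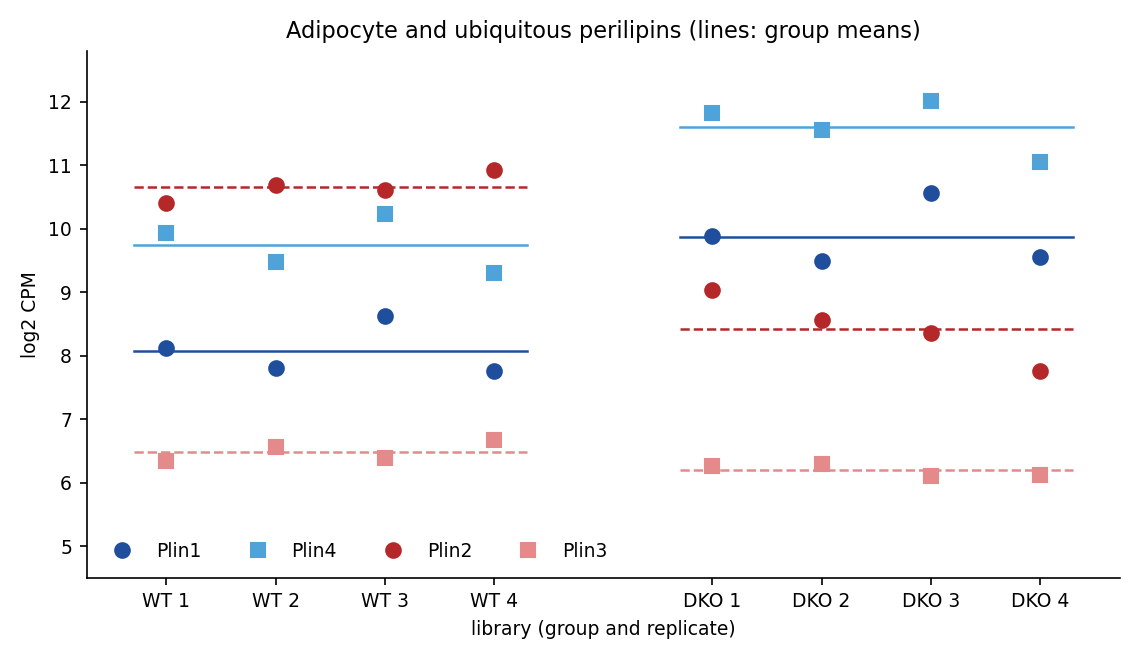
Log2 CPM of Plin1 and Plin4 (blue) and Plin2 and Plin3 (red) in each library, with group means as lines. Plin2 is the topmost point in 4 of 4 WT libraries and lies below both blue points in 4 of 4 knockout libraries, and because CPM is not divided by length the distance between genes is not a difference in transcript number.

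The start regions of Plin1 and Plin2, a fat cell form that rose and a widely expressed form that fell, are printed to show their letters, from 250 bases before to 50 after the start in RefSeq (GRCm38.p6), 5′ to 3′ on the gene's strand. Capitals in Plin1 mark TTCCTC, on whose other strand the core GAGGAA of the myeloid factor PU.1 reads. Capitals in Plin2 mark TGACCT, on whose other strand the half-site AGGTCA reads, which pairs of PPAR and RXR recognise in tandem.
Plin1, minus strand of chr7:79732727-79733026: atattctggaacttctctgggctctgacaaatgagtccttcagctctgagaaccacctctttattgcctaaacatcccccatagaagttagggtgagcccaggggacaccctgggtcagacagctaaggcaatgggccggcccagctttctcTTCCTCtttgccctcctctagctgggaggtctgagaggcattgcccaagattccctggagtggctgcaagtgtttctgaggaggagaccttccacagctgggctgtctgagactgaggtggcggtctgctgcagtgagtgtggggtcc
Plin2, minus strand of chr4:86670010-86670309: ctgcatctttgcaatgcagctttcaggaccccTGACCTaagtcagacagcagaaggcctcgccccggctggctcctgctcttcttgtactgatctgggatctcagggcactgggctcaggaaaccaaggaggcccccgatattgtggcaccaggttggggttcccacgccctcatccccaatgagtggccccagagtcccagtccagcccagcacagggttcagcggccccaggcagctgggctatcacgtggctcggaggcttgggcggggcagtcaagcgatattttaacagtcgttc
The Plin1 match starts at base −98 and the Plin2 match at base −218 from the start. Searched on both strands, AGGTCA occurred in 4 of 13 promoters of 9 members found in the table (Plin2, Plin5 and Bscl2) and in 16.3% of 32851 promoters. GAGGAA occurred in 3 of 13 (Plin1, Plin3 and Bscl2) and in 28.3% of all. The tandem form AGGTCANAGGTCA was in no member's window and in 0.0396% of all promoters, and with up to 2 mismatches it was in the Plin2 window alone among the members and in 3.86% of all. These are matches of letters in a short window and say nothing of which factor was bound.

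Plin5, which ties droplets to mitochondria, was the least abundant member. Log2 CPM was 1.83, 2.59, 2.68 and 2.12 in WT and 3.29, 3.55, 3.71 and 3.23 in knockout libraries, resting on 14 to 92 reads in WT and 36 to 897 reads in knockout. The groups did not overlap, and the change was 1.14 ± 0.24 (limma adjusted p = 0.00525). With every library thinned to the smallest total, in a single random draw, the Plin5 change was 0.88 and did not pass (limma adjusted p = 0.0607). Other draws were not made. Plin3, Plin4 and Plin5 lie on the same strand of chromosome 17 in the annotation, and their changes of −0.29, 1.87 and 1.14 covered both directions.

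Cidec, the fusion protein that makes single large droplets, rose in the knockout. Log2 CPM was 9.85, 9.66, 10.25 and 9.59 in WT and 11.32, 11.26, 11.22 and 10.79 in knockout libraries, and the groups lay 0.54 apart at their nearest points. The Cidec change was 1.31 ± 0.20, or 2.48-fold (limma adjusted p = 0.00118). It was 1.43 in each class of ribosomal RNA.

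G0s2, the inhibitor of the first lipase of fat breakdown, rose from 6.19, 6.20, 6.14 and 5.72 in WT to 7.45, 7.28, 8.35 and 8.78 in knockout libraries (log2 CPM). Knockout replicates 3 and 4 stood above replicates 1 and 2, and WT replicate 4 was the lowest of all. The change was 1.90 ± 0.32 (limma adjusted p = 0.0017). G0s2 lies within the Lamb3 gene on the opposite strand, and Lamb3 changed by 0.51 ± 0.49 (limma adjusted p = 0.428).

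Lgals12, the galectin, had the largest rise among the 10 members. Log2 CPM was 5.65, 4.96, 5.88 and 5.12 in WT and 7.62, 7.09, 8.83 and 8.47 in knockout libraries, with no overlap. The Lgals12 change was 2.60 ± 0.37, or 6.07-fold with a 95% interval of 3.38-fold to 10.9-fold (limma adjusted p = 0.000810). As for G0s2, knockout replicates 3 and 4 were the highest. Erythrocyte markers also took more reads there, 0.406% and 1.19%, against 0.0826% and 0.0419% in knockout replicates 1 and 2 and 0.0276% to 0.0465% in WT. The part of this in the G0s2 and Lgals12 values was not tested.

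Both genes of droplet formation rose. Fitm2, which partitions triglyceride toward budding droplets, was 5.17, 4.91, 5.41 and 4.94 in WT and 6.57, 6.09, 6.54 and 6.19 in knockout libraries (log2 CPM). Its groups did not overlap, and it changed by 1.24 ± 0.16 (limma adjusted p = 0.000426). Bscl2, whose protein seipin sits at the neck between membrane and droplet and whose loss causes lipodystrophy, was 6.99, 6.95, 7.36 and 6.99 in WT and 7.57, 7.75, 8.14 and 7.98 in knockout libraries. The groups lay 0.21 apart at their nearest points, and the Bscl2 change of 0.79 ± 0.15 (limma adjusted p = 0.00326) was the smallest among the 8 that rose. Within the classes with more and with less ribosomal RNA it was 0.45 and 1.01. Antisense or overlapping genes share bases with both loci (2310001K24Rik with Fitm2, Gng3 and a further gene model with Bscl2) and were not analysed here.

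Levels of different genes can be set beside each other only per length, and were expressed as CPM per kilobase of annotated exon. In WT tissue the Plin2 level led with 859 ± 126, followed by Cidec with 530 ± 115 and Plin4 with 152 ± 45.4. G0s2 (77.5 ± 11.3), Plin1 (72.0 ± 21.2) and Bscl2 (59.95 ± 8.41) came next and overlapped one another. Plin3 (24.7 ± 2.60), Lgals12 (15.8 ± 4.70), Fitm2 (8.78 ± 1.47) and Plin5 (2.43 ± 0.648) closed the order, each apart from its neighbour.

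In knockout tissue the same scale put the Cidec level first with 1306 ± 204 and Plin4 second with 556 ± 149. G0s2 (315 ± 154), Plin1 (253 ± 94.5) and Plin2 (191 ± 66.9) followed with overlapping ranges, and the lowest Plin4 value lay within those of G0s2 and Plin1. Plin2 had gone from the first to the fifth place, its lowest value within the ranges of Bscl2 and Lgals12. Bscl2 (104 ± 17.97) and Lgals12 (103 ± 52.4) overlapped, as did Fitm2 (20.7 ± 3.43) and Plin3 (20.1 ± 1.32), and Plin5 stayed last with 5.26 ± 0.836. With the longest transcript as the length the order differed only in that Plin1 and G0s2 changed places in both groups.

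**Figure D3:**
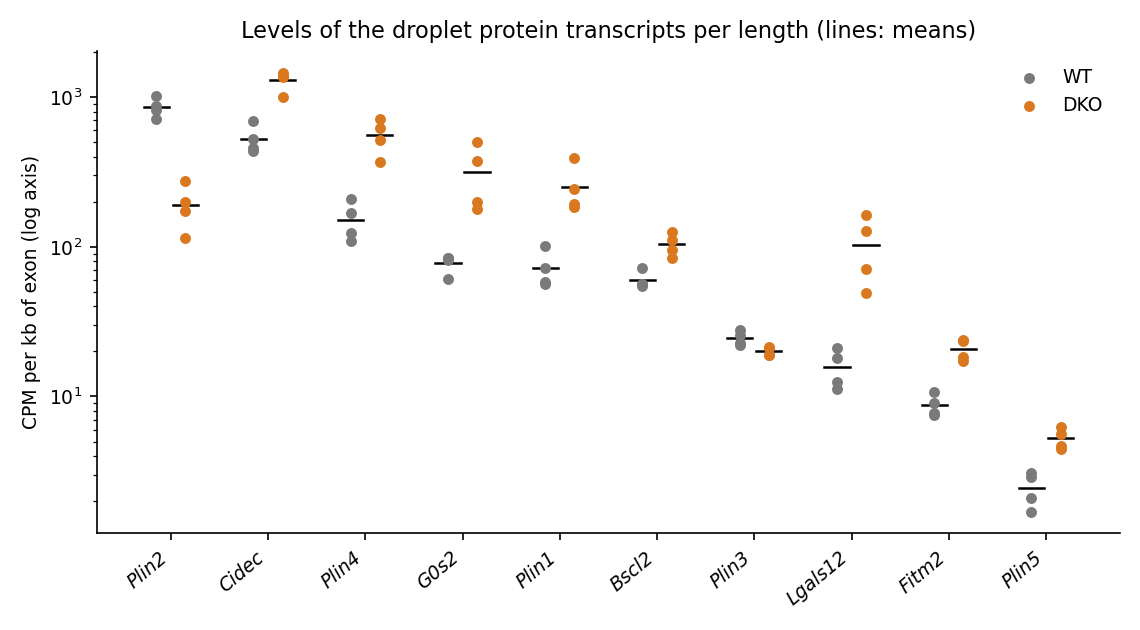
CPM per kilobase of exon on a log axis for each member in 4 WT (grey) and 4 knockout (DKO, orange) libraries, with means as lines and genes ordered by their WT mean. Plin2 leads in WT at 859 and falls to 191, while Cidec, Plin4, G0s2 and Plin1 pass it in the knockout means.

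Markers of fat cells and of macrophages moved in the same directions as the 2 kinds of perilipin. Of 15 tested adipocyte markers 12 were higher and 0 lower in limma (1 lower at an unadjusted p under 0.05, the fatty acid carrier Cd36 at −0.59 ± 0.25), with a median change of 1.87, and they took 2.35% to 3.59% of reads in WT and 4.08% to 6.72% in knockout libraries. Adipoq, the adiponectin gene, rose by 2.13 ± 0.24 (limma adjusted p = 0.000231). Of 18 tested macrophage markers 0 were higher in limma (0 higher at an unadjusted p under 0.05) and 17 lower, with a median change of −2.44 and shares of 2.50% to 2.80% in WT and 0.818% to 1.47% in knockout libraries. Adgre1, the F4/80 antigen, changed by −2.90 ± 0.16 (limma adjusted p = 1.26e-05). Among all tested genes 22.7% were higher and 16.1% lower. No marker of either list was at 0 in any library, and Lpl stood in both lists. In whole tissue, fewer cells of a type and less RNA per cell cannot be told apart.

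Each member was also set against the mean log2 CPM of each marker list in the same library, as a description without a test. A group difference on that scale is the change of the member less that of the list mean. Relative to the 15 adipocyte markers, whose mean rose by 2.07, Plin1 differed by −0.28, Plin4 by −0.20, G0s2 by −0.17 and Lgals12 by 0.53 between the groups, and for these 4 the WT and knockout values overlapped. Cidec (−0.76) and Plin5 (−0.93) overlapped only barely, through knockout replicate 2. That library stood at 1.1765 against a lowest WT value of 1.1736 for Cidec, and at −6.54 against −6.56 for Plin5. Fitm2 (−0.83), Bscl2 (−1.29), Plin3 (−2.37) and Plin2 (−4.30) were lower relative to that list in every knockout library.

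Relative to the 18 macrophage markers, whose mean changed by −2.49, Plin2 was 1.42 ± 0.17 in WT and 1.68 ± 0.23 in knockout, and it was the only member whose groups overlapped on that scale. Its single values were 1.19, 1.43, 1.49 and 1.58 in WT and 1.90, 1.78, 1.70 and 1.35 in knockout libraries. Only knockout replicate 4 lay within the WT range. The overlap follows from a Plin2 change (−2.23) near that of the list mean and adds no separate result. Plin3 differed by 2.19 on the same scale. The part of either cell type in the changes of the members was not tested.

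**Figure D4:**
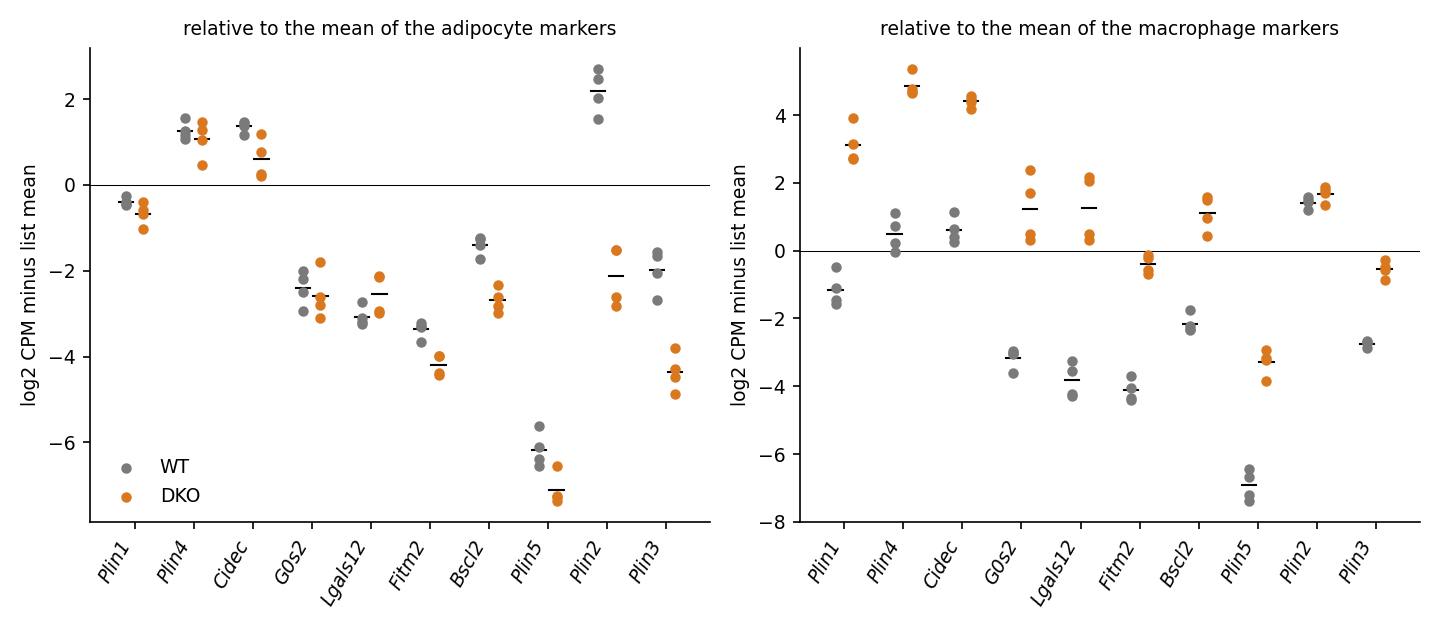
Log2 CPM of each member minus the mean log2 CPM of 15 adipocyte markers (left) or 18 macrophage markers (right) in the same library, WT grey and knockout (DKO) orange, with means as lines. On the left the groups overlap for Plin1, Plin4, G0s2 and Lgals12, and barely, through knockout replicate 2 alone, for Cidec and Plin5. On the right they overlap only for Plin2.

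The genes whose profiles over the 8 libraries came closest to Plin1 and to Plin2 were sought among 13055 tested genes by the root mean square difference in log2 CPM after centring each gene on its mean. For Plin1 they were Lipe, the hormone-sensitive lipase (0.093), Pcsk6, a proprotein convertase (0.118), Hcar1, the lactate receptor (0.122), Sik2, a salt-inducible kinase (0.136), and Art3 (0.165). Plin4 lay at 0.208 from Plin1. For Plin2 they were Evi2a (0.124), Plekho2 (0.130), Lum, the matrix protein lumican (0.141), P2ry6, a nucleotide receptor (0.143), and Plekhn1 (0.144). Since this distance includes the difference between the groups, genes chosen by it have like changes. These were rises from 1.63 to 1.92 for Plin1 and changes from −2.09 to −2.37 for Plin2. Among the members Cidec and Fitm2 were a close pair as well, at 0.168.

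Other proteins of the droplet surface went in both directions. Of 19 tested genes of that list 4 were higher, 3 lower and 12 did not pass, with a median change of −0.02, beside 22.7% higher and 16.1% lower of all tested genes. At an unadjusted p under 0.05 there were 8 higher and 3 lower, and with array weights 7 passed as higher. Whether this list differed from the members was not tested. The 4 higher were Pnpla3, a lipase relative that rose by 2.02 ± 0.22, Cav1, the caveolin of the fat cell surface (1.15 ± 0.22), Aifm2, an oxidoreductase that also sits on droplets (1.05 ± 0.17), and Ldah, a droplet hydrolase (0.42 ± 0.11). Ldah did not pass with median-centred libraries (0.28, limma adjusted p = 0.0919). The 3 lower genes, named after their values were seen, were Hilpda, a hypoxia-induced inhibitor of Pnpla2 (−1.29 ± 0.36), Spg20, the spartin gene (−0.39 ± 0.11), and Spast, a microtubule-severing protein (−0.37 ± 0.10). Each of these lost its call without WT replicate 4 (limma, Hilpda −1.14 with adjusted p = 0.0643, Spg20 −0.36 with 0.0688, Spast −0.34 with 0.0557). All 3 also lost it with only the libraries under 1% epididymis reads (Hilpda −1.24 with adjusted p = 0.0523, Spg20 −0.41 with 0.115, Spast −0.40 with 0.113). Hilpda lost it as well with a covariate for the class of ribosomal RNA (−1.01, adjusted p = 0.0763), and Spg20 with thinned reads (−0.26, adjusted p = 0.159). Hilpda also lost it without knockout replicate 3 (−1.04, adjusted p = 0.0512) and Spg20 without knockout replicate 2 (−0.35, adjusted p = 0.0548).

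Both inhibitors of Pnpla2 were thus measured, G0s2 with a rise of 1.90 and Hilpda with a change of −1.29. The lipolysis genes on which the droplet coat acts were mostly higher, beside 22.7% higher and 16.1% lower of all tested genes. Of 11 tested, 8 rose and 0 fell in limma (1 lower at an unadjusted p under 0.05), with a median change of 0.93. The 1 gene was Prkacb, a catalytic subunit of protein kinase A, whose difference of −0.34 ± 0.13 (limma adjusted p = 0.0667) passed in 9 of 23 alternative settings. Adrb3, the beta-3 adrenergic receptor of fat cells, rose by 4.21 ± 0.45, Pnpla2, the triglyceride lipase, by 2.02 ± 0.22, Lipe by 1.87 ± 0.25 and Adrb1, a receptor at only −0.62 log2 CPM in WT, by 2.69 ± 0.51. On the log2(CPM + 1) scale the Adrb1 change was 1.61. Abhd5, the activator that Plin1 holds, differed by 0.49 ± 0.22 and did not pass (limma adjusted p = 0.101).

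Triglyceride assembly, which fills the droplet, rose in 7 of 10 tested genes and fell in 0 in limma (0 lower at an unadjusted p under 0.05), with a median change of 1.10. Pck1, an enzyme on the path to the glycerol backbone, rose by 3.41 ± 0.32 and Gpam, the first acyltransferase, by 1.36 ± 0.15. Agpat9 rose by 1.80 ± 0.29 and Dgat1, which adds the last fatty acid, by 1.29 ± 0.21. Of 11 transcription regulators that drive fat cell genes 8 rose and 1 fell, with a median change of 1.00. Pparg rose by 1.43 ± 0.19, its partner Rxra by 1.00 ± 0.11, Ppara by 2.18 ± 0.33 and Cebpa by 1.32 ± 0.20. The 1 that fell, named after its value was seen, was Cebpb (−0.45 ± 0.16, limma adjusted p = 0.0486). Its call was lost in 14 of 23 alternative settings, among them leaving out any single library but WT replicate 3 and knockout replicate 3 (−0.46 to −0.36, adjusted p from 0.0744 to 0.118). The assembly and regulator lists were written with earlier results of these data known, and 22.7% of all tested genes were higher and 16.1% lower. Adrb3 and Pck1 also belong to the adipocyte list.

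**Figure D5:**
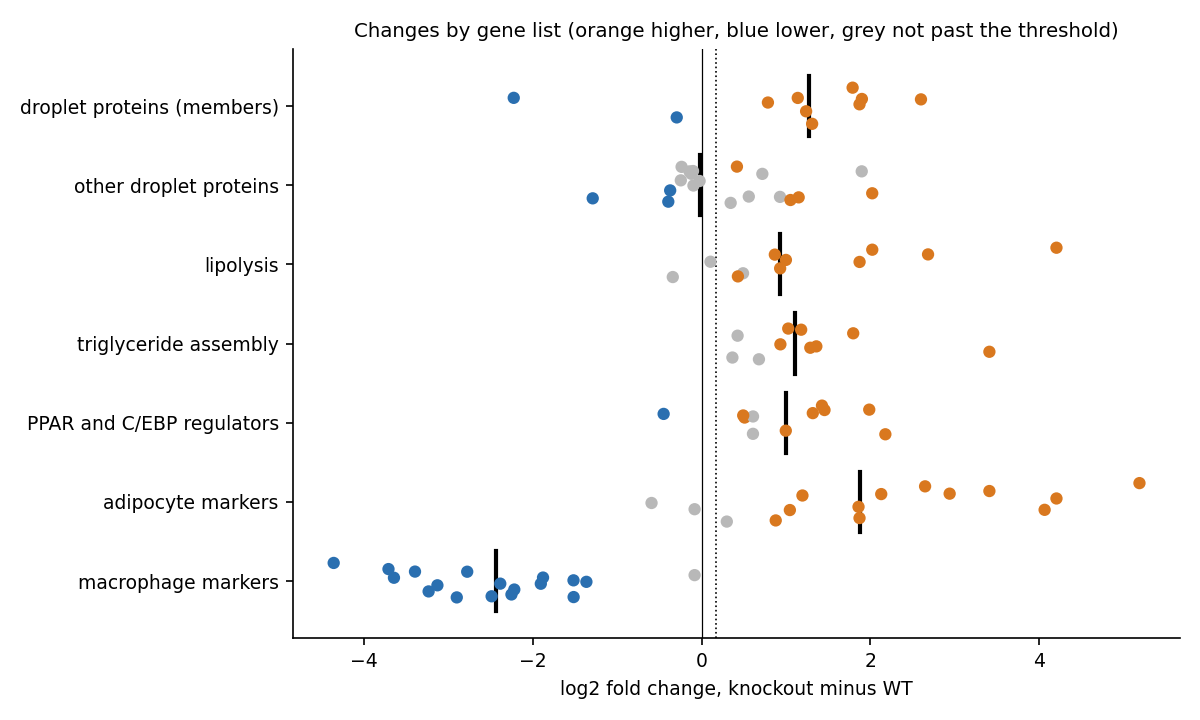
Log2 fold changes (knockout minus WT) of the tested genes of 7 lists, 1 point a gene (orange higher, blue lower, grey not past the threshold), with the list median as a black bar and the median of all tested genes (0.18) dotted. The members have a median of 1.28 with Plin2 and Plin3 on the left, the other droplet proteins centre at −0.02, and the adipocyte and macrophage lists lie at 1.87 and −2.44.

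Markers of some other cell types that the fat pad can hold also differed, beside 22.7% higher and 16.1% lower of all tested genes. All 7 endothelial markers rose (median change 0.99), as did 4 of 7 mesothelial markers (Upk3b, Msln, Krt19 and Lrrn4), of which Krt19 and Lrrn4 lost their calls in 5 and 9 of 23 alternative settings. Of 8 progenitor and fibroblast markers Dpp4 rose, and Lum, Col1a1, Col1a2 and Pdgfrb fell, with the call of Pdgfrb lost in 1 of 23 settings. The hemoglobin genes Hba-a1 and Hba-a2 rose among 5 tested erythrocyte markers, with calls lost in 11 and 15 of 23 settings. Of 17 tested epididymis markers 0 passed in limma, and 0 had an unadjusted p under 0.05. Of 5 tested brown and oxidative fat markers Ppargc1a, a coactivator of mitochondrial genes, rose and Dio2, a deiodinase, fell. Ppargc1a did not pass with voom on whole reads and median-ratio size factors (1.74, limma adjusted p = 0.0845). The part of these cells in the member values was not tested.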

How the data were processed

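Polyadenylated RNA from 8 fat pads was made into stranded TruSeq libraries and read as 75-base single ends, per the labels' protocols. Trimmomatic, TopHat2, featureCounts, limma and build mm9 are named in the submitters' processing notes, while versions, settings and strand counting are not given. The authors deposited voom log2 CPM values for 16505 genes. Undoing the voom offset of 0.5 reads returned whole reads (within 0.01 read) for 100% of values, which gave the library totals.

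The log2 values were fitted with limma 3.58.1 in R 4.3.3 (lmFit, eBayes with a variance trend, group only), two-sided, for the 13797 genes averaging 0 log2 CPM or more, with Benjamini-Hochberg adjustment over all of them at 0.05. The code was tested on simulated data. Members and lists were chosen with earlier results of these data known. Named genes are all members, up to 4 genes of each described list with the smallest p, the 5 genes closest to Plin1 and to Plin2 (predicted genes left out), and overlapping neighbours of members. Values are not given for every gene the rule takes from the marker lists. Abhd5, Prkacb, Cd36, Cebpb, Dpp4, Hilpda, Spg20 and Spast were added after their values were seen, as were the values relative to marker lists. Lengths and 3′ UTRs came from GENCODE on GRCm38, promoters and microRNAs from RefSeq on GRCm38.p6 (9 of 10 members matched a promoter, all but Lgals12), and no coordinate was converted. The 23 alternatives covered filters, transforms, scaling, variance models, a replicate block, covariates, left-out libraries and thinned reads (a single random draw). Plots used matplotlib 3.10.9.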

Additional observations from a re-analysis of the deposited data

Results flagged for a closer look

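Among 30 groups of 4 libraries examined (the members and the perilipin contrasts in each genotype), 2 held a library far from the other 3, its gap to the nearest taking most of the group's range (above the 95% critical value of Dixon's ratio). G0s2 in WT replicate 4 was 5.72 log2 CPM, with a gap of 0.890 of the range. Bscl2 in WT replicate 3 was 7.36 log2 CPM, with a gap of 0.882 of the range. Chance sets apart about 1 in 20 such groups.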

How the results depend on the processing

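Over 23 alternatives, the 230 refits of the 10 members gave 216 with the same direction and call, 14 with the same direction but a lost call, and 0 with a reversed direction. Only Plin3 and Plin5 lost a call. Plin3 lost it with no filter (−0.29, adjusted p = 0.0551), no variance trend (−0.29, 0.0774), a robust fit (−0.29, 0.0524), a covariate for the class of ribosomal RNA (−0.30, 0.101), only libraries under 1% epididymis reads (−0.28, 0.234) and the epididymis level as a covariate (−0.30, 0.0586), leaving 1 member lower in each. Without single libraries Plin3 ranged from −0.34 to −0.23, and 1 to 2 members were lower. Plin5 lost its call with thinned reads (0.88, 0.0607), leaving 7 members higher. Causes were not tested. The perilipin contrast, recomputed in 10 of the settings, ranged from 2.89 to 3.29, and it was 2.77 and 3.48 within the ribosomal RNA classes.

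The labels do not say whether replicate numbers pair the animals. After centring each gene within its group, same-numbered libraries correlated at 0.36, 0.79, 0.24 and −0.36, and 1 of 4 WT libraries correlated best with its own number. These correlations run over all tested genes, those of epididymis included, so they cannot decide whether animals were paired. The replicate block gave 3232 higher and 2136 lower genes, 8 members higher and 1 lower, with Plin3 at −0.29 (adjusted p = 0.0758), and it changed no other member's call.

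Over all tested genes, higher calls ranged from 2113 to 4428 and lower calls from 1711 to 2986. Quantile normalization gave 2478 higher and 2660 lower, and median-ratio scaling 2390 and 2986. With the class of ribosomal RNA as a covariate Eppin (−0.70), Adam7 (−1.37), Lcn10 (−1.33), Cst12 (−0.95), Rn18s (0.41) and Rn28s1 (0.49) reversed, none of them called. Depth limits Plin5 most, with 14 reads in WT replicate 1.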
